A study of Mus musculus with 6 samples.

Results

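The genes described here are protein-coding genes named as subunits of the mitochondrial oxidative phosphorylation system, measured by RNA-seq in mouse breast tumour cells. Members were chosen by symbol: Nduf genes of the A, B, C, S and V series, Sdha to Sdhd, Uqcr genes, Cox4 to Cox8 genes, Atp5 genes, and the protein-coding genes of mitochondrial DNA. The rule found 97 of the 52325 genes in the deposited table, 84 encoded in the nucleus and 13 on mitochondrial DNA. By name, 44 belong to complex I, 4 to complex II, 9 to complex III, 21 to complex IV and 19 to complex V. The set is not a full list of subunits, since the rule misses those whose symbols do not match it. An example is Ndufab1, whose symbol has no number after the series letter.

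The samples are 6 libraries of total RNA from tumours of C57BL/6 mice that the labels call C3-T; Elf5-GFP reporters. All 6 carry both alleles, the labels do not expand C3-T or say what drives it, and no treatment or age is given. Digested tumours were enriched for tumour cells with antibodies to CD45, CD31 and TER119 and then sorted by GFP, which reports Elf5, a transcription factor of the alveolar mammary epithelium, into Elf5+ (n = 2) and Elf5- (n = 4) cells. Titles also hold 1 of 2 numbers and a T1 or T2 code, with no key to either; Elf5+ library 1 shares its number with Elf5- libraries 1 and 2, Elf5+ library 2 shares the other with Elf5- libraries 3 and 4, and Elf5- libraries 1 and 3 are T1. The labels do not tie libraries to animals or cultures, and p-values here cover the spread between libraries alone, which may be technical.

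Oxidative phosphorylation couples the oxidation of NADH and succinate to ATP synthesis in the inner mitochondrial membrane. Electrons enter at complex I (NADH dehydrogenase) or complex II (succinate dehydrogenase), pass through complex III (cytochrome bc1) to complex IV (cytochrome c oxidase), and complex V (ATP synthase) uses the proton gradient that results. Complex II is encoded wholly in the nucleus; the other complexes combine nuclear subunits with subunits transcribed from mitochondrial DNA as long polycistronic RNAs. Several nuclear subunits of complex IV have paralogues that are used in particular tissues or at low oxygen.

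Library totals ran from 9106660 counts (Elf5- library 4) to 53694884 counts, and 20684 genes passed the filter on low counts. Elf5 itself was at 77.7 and 137 CPM (counts scaled to library size with TMM factors) in the Elf5+ libraries and at 10.7, 6.93, 10.5 and 24.7 CPM in the Elf5- libraries, a log2 fold change of 3.04 (SE 0.48, edgeR quasi-likelihood test, adjusted p = 0.0165). The Elf5 call was lost without Elf5+ library 2 (adjusted p = 0.0573), Elf5- library 1 (0.0665) or Elf5- library 3 (0.0644) and in the T2 libraries alone (0.270), with the log2 fold change at 2.58 or more in these fits. The 10 epithelial markers were detected in every library, with 4 higher in Elf5+ cells and a summed level of 4927 to 6886 CPM against 1775 to 3085 CPM. Of 13 fibroblast markers, 11 were lower in Elf5+ cells, with a summed level of 1830 to 2033 CPM against 18495 to 52974 CPM. The Elf5- libraries therefore held more fibroblast marker transcripts than the Elf5+ libraries did. In sorted bulk cells, fewer cells of a type and less RNA per cell cannot be told apart. Skeletal muscle markers summed to 291 CPM in Elf5- library 1 and 53.8 CPM in Elf5- library 2, and to at most 15.5 CPM in the other 4 libraries.

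Of the 97 members, 94 passed the filter, and 2 of them passed the test, both lower in Elf5+ cells: Ndufa4l2 and Cox4i2. No member was called higher in that fit. Across all genes 0.585% were called higher and 3.79% lower, and the 2 lower members are 2.13% of those kept, less than the share of all genes. At an unadjusted p under 0.05 in the same edgeR fit, 9 members were higher and 2 lower, against 5.2% and 11.7% of all genes, and DESeq2 called 1 member higher (Ndufb7), against 2.11% of all genes. Of the 81 nuclear members kept, 66 had a log2 fold change between -0.5 and 0.5, and 3 that were not called lay beyond 1 in either direction: Cox6a2 at -3.12 (SE 1.41), Cox7a1 at 1.14 (SE 0.45) and Atp5g2 at 1.12 (SE 0.54). In simulated counts of these 20684 genes, the test called 2 of 75 genes set higher by a log2 value of 1 and 0 of 75 set higher by 0.5. The changed genes were drawn at random above a level cut, not chosen as members, and kept their own spread. The rate at which the test detects such differences in the members was therefore not measured. The count depended on the model: with the 4 T2 libraries alone and the title number as a block, edgeR called Ndufa4 and Cox6c higher and the same 2 members lower, against 2.83% and 7.05% of all genes. At an unadjusted p under 0.05, 34 members were higher and 3 lower in that fit, against 10.7% and 14.7% of all genes. What the number stands for is not given, and that fit leaves 1 residual degree of freedom, so its calls rest on the spread pooled over genes.

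The direction of the differences was not even. A log2 fold change above 0 was found for 70 of the 81 nuclear members kept (86.4%), for 6 of the 13 mitochondrially encoded members, and for 53.3% of all genes. The median log2 fold change was 0.32 over the nuclear members, -0.01 over the mitochondrially encoded members and 0.05 over all genes. Both Elf5+ libraries lay above all 4 Elf5- libraries for 22 nuclear members (27.2%) and for 10.9% of all genes, and for no mitochondrially encoded member. They lay below for 2 members, Ndufa4l2 and Cox4i2, against 14.8% of all genes. Under the title number of library 1, the Elf5+ library was above both Elf5- libraries for 62 of the 81 nuclear members. Under that of library 2 it was above both for 44 of the 81. Of all 20684 genes, 7639 and 7873 met these conditions. Both conditions were met by 36 nuclear members (44.4%), against 20.6% of all genes. Leaving out 1 library at a time, the nuclear median stayed between 0.24 and 0.40. The plot of log2 fold changes by complex shows the nuclear members massed just above the median of all genes, with the 2 called members and Cox6a2, which was not called, far below it.

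**Figure D1:**
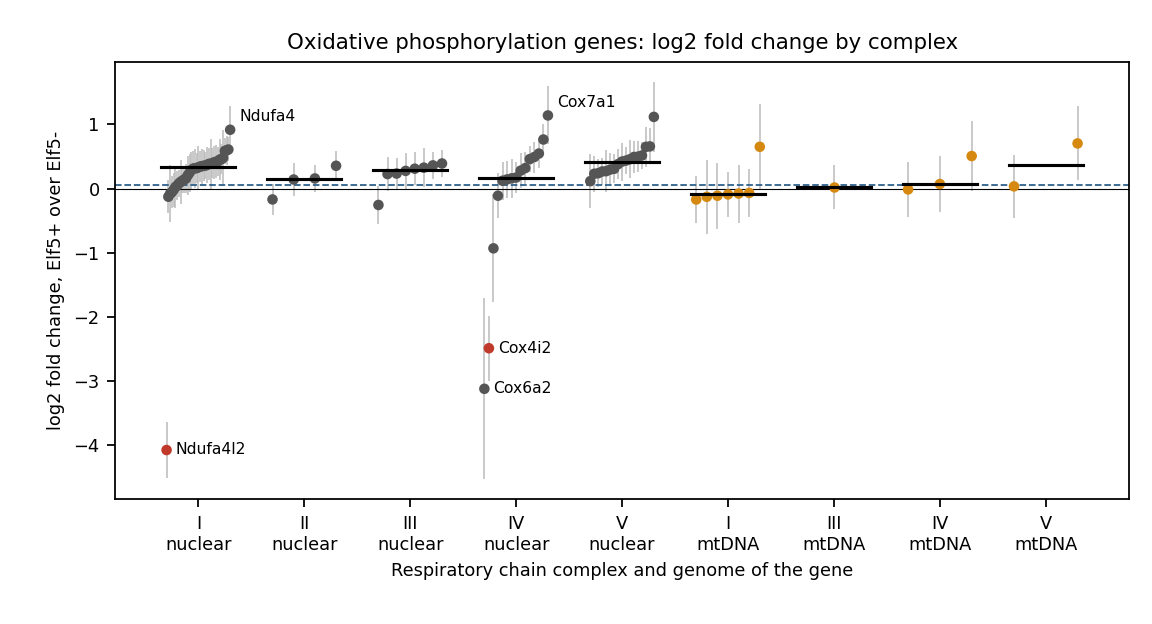
Log2 fold change (Elf5+ over Elf5-, y axis) of the 94 members kept, by complex and genome (x axis). Points are genes with SE bars (grey nuclear, orange mitochondrial DNA, red adjusted p below 0.05), black lines are group medians and the dashed line is the median of all genes (0.05); all 17 nuclear complex V members lie above 0, and Ndufa4l2, Cox6a2 (not called) and Cox4i2 lie at -4.07, -3.12 and -2.49.

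Summed over genes, the nuclear members took 0.752% and 0.809% of the counts in the Elf5+ libraries and 0.529%, 0.631%, 0.632% and 0.606% in the Elf5- libraries. The groups did not overlap: the mean was 0.780% ± 0.040 (SD, n = 2) in Elf5+ cells and 0.600% ± 0.048 (SD, n = 4) in Elf5- cells. The Elf5+ library was also above the 2 Elf5- libraries that share its number, under both numbers. The fibroblast and other marker levels given above move with the same grouping, and their part in this difference was not tested.

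Ndufa4l2 had the largest difference of any member kept. It encodes a small protein related to Ndufa4, is known as a target of hypoxia-inducible factor 1, and is also known as a transcript of pericytes. Its gene lies on the plus strand at chr10:127514967-127517154 (GENCODE M21, GRCm38). Ndufa4l2 was at 1.12 and 0.91 CPM in the Elf5+ libraries and at 20.1, 17.6, 20.2 and 10.6 CPM in the Elf5- libraries. Every Elf5- library was thus above both Elf5+ libraries, under both title numbers. The mean was 1.02 ± 0.15 CPM (SD, n = 2) against 17.1 ± 4.5 CPM (SD, n = 4), 16.8 times lower in Elf5+ cells, with a log2 fold change of -4.07 (SE 0.44, edgeR quasi-likelihood test, adjusted p = 0.0100). The call held when any 1 library was left out. It was lost in edgeR without Elf5- libraries 1 and 2 (log2 fold change -3.92, adjusted p = 0.0621) and with the T2 libraries alone (-3.78, adjusted p = 0.101). Elf5- libraries 1 and 2 had the most skeletal muscle transcripts and also share the number of Elf5+ library 1. Over all genes, these fits called 0 higher and 75 lower, and 0 and 0, against 121 and 783 in the main fit.

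Ndufa4, the widespread paralogue, had a positive value that did not pass the test. It was named as a complex I subunit, under which it is counted here, and its protein is now placed in complex IV. Ndufa4 was at 181 and 180 CPM in the Elf5+ libraries and at 55.0, 80.1, 150 and 97.5 CPM in the Elf5- libraries. Both Elf5+ libraries were above all 4 Elf5- libraries, which themselves spread widely (95.6 ± 40.2 CPM, SD, n = 4). The log2 fold change was 0.92 (SE 0.36, adjusted p = 0.246); it passed in the T2 libraries with the title number as a block (1.04, adjusted p = 0.0200) and, with the block, not in all 6 libraries (1.00, adjusted p = 0.113). Per kilobase of transcript, Ndufa4l2 made up 0.351% and 0.287% of the pair in the Elf5+ libraries and 17.2%, 11.1%, 7.13% and 5.82% in the Elf5- libraries. The coding sequences are shown because reads must tell the paralogues apart for these shares to hold. They are written without the stop codon and read from 1 GRCm38 transcript of each gene (Ndufa4 on the minus strand within chr6:11900538-11907365, Ndufa4l2 on the plus strand within chr10:127514982-127516496), with capitals where an alignment of the pair found a different base or no partner.
Ndufa4: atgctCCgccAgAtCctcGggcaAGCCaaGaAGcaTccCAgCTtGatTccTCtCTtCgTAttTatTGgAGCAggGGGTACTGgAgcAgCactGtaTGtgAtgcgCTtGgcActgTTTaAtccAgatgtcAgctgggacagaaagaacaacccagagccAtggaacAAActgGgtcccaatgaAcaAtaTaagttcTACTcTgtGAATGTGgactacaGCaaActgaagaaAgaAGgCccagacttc
Ndufa4l2: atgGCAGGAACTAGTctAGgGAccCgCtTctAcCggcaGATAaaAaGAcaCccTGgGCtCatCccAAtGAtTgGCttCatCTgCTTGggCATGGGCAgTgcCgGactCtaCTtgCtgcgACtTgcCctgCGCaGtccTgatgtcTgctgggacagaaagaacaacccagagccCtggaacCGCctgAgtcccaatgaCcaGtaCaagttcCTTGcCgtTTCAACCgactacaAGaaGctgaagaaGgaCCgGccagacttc
Of 246 aligned bases, 160 (65.0%) were identical, and the longest run of identical bases was 28. Of the 31-base words in Ndufa4l2 transcripts, 0.450% also occur in another gene, so the paralogues have little sequence in common over the length of such a word.

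Cox4i2 was the other called member. It encodes an alternative form of subunit 4 of cytochrome c oxidase, known in lung and linked to low oxygen, and is also known as a pericyte transcript; Cox4i1 is the widespread form. The Cox4i2 gene lies on the plus strand at chr2:152754173-152765037. Cox4i2 was at 0.63 and 0.66 CPM in the Elf5+ libraries and at 2.77, 3.03, 5.29 and 3.39 CPM in the Elf5- libraries. The groups did not overlap, and the mean of the Elf5+ libraries was 5.62 times lower, with a log2 fold change of -2.49 (SE 0.51, edgeR quasi-likelihood test, adjusted p = 0.0368). This call rested on all 6 libraries: leaving out any 1 of them gave an adjusted p from 0.0584 to 0.139, with the log2 fold change between -2.60 and -2.24. Cox4i2 shares no 31-base word with another gene.

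Cox4i1 was at 302 and 321 CPM in the Elf5+ libraries and at 222, 225, 235 and 224 CPM in the Elf5- libraries. The 4 Elf5- values lay close together, and both Elf5+ values were above them (log2 fold change 0.46, SE 0.20, adjusted p = 0.311). Cox4i2 made up 0.215% and 0.211% of the pair per kilobase in the Elf5+ libraries and 1.28% to 2.27% in the Elf5- libraries. The Cox4i1 and Cox4i2 coding sequences are 65.1% identical over 498 aligned bases.

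Markers of pericytes and smooth muscle had the same grouping as Ndufa4l2 and Cox4i2. Of 11 markers, 7 were called lower in Elf5+ cells, all 11 had a negative log2 fold change, the median was -4.25, and the summed level was 159 to 196 CPM in the Elf5+ libraries against 766 to 1766 CPM in the Elf5- libraries. Rgs5, a regulator of G protein signalling found in pericytes, was at 7.92 and 4.35 CPM against 126 to 395 CPM (log2 fold change -5.44, SE 0.60, adjusted p = 0.0100). Abcc9, a subunit of a potassium channel of mural cells, was at 2.09 and 1.55 CPM against 34.3 to 72.9 CPM. Pdgfrb, the receptor of mural cells and fibroblasts, and Higd1b, a mitochondrial protein of pericytes, were also called lower (adjusted p = 0.0112 and 0.0184). No marker of the list was at 0 in an Elf5+ library. This grouping was not particular to pericyte and smooth muscle markers. The 13 fibroblast markers had a median log2 fold change of -4.67, with 11 called lower. The 10 endothelial markers had a median of -1.21, with 3 called lower. Over all genes 3.79% were called lower. The part of any of these cells in the calls of Ndufa4l2 and Cox4i2 was not tested.

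Genes of the hypoxia response did not share a direction. Of 11 kept, 2 were called lower in Elf5+ cells and none higher, and the median log2 fold change was 0.21. Adm, which encodes adrenomedullin, lay at -1.46 (SE 0.27, adjusted p = 0.0274) by log2 fold change, and Hk2, a hexokinase, at -1.22 (SE 0.26, adjusted p = 0.0402). Egln3, a prolyl hydroxylase that is itself induced by hypoxia-inducible factors, had a positive value of 0.96 that did not pass (SE 0.25, adjusted p = 0.0837), and so did Ndrg1 (0.71, SE 0.30, adjusted p = 0.279).

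**Figure D2:**
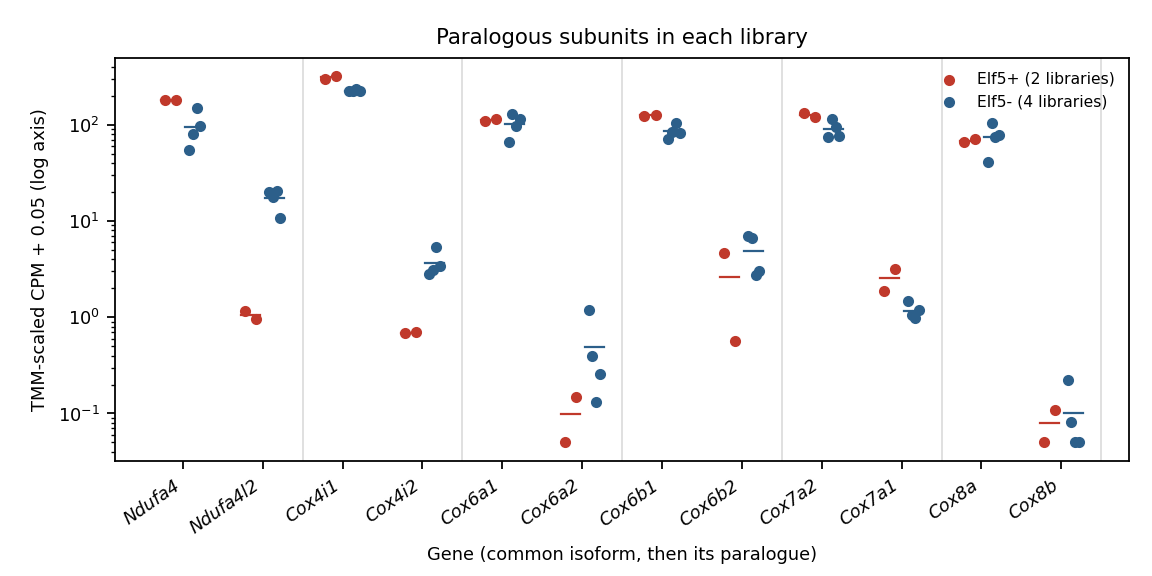
Level of each common isoform and its paralogue (x axis) in CPM plus 0.05 on a log axis (y axis), with 1 point per library (red Elf5+, blue Elf5-) and lines at the group means. Ndufa4l2 is at 0.91 and 1.12 CPM in Elf5+ cells and at 10.6 to 20.2 CPM in Elf5- cells, and Cox4i2 likewise lies apart, while the groups overlap for Cox6a2, Cox6b2 and Cox8b.

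The other tissue-restricted subunits of complex IV were rare and did not pass the test. Cox6a2, the form of heart and skeletal muscle, was at 0 and 0.10 CPM in the Elf5+ libraries and at 1.14, 0.35, 0.08 and 0.21 CPM in the Elf5- libraries (log2 fold change -3.12, SE 1.41, adjusted p = 0.321). Its highest values were in Elf5- libraries 1 and 2, where the skeletal muscle markers were also highest, and it rested on 52 counts or fewer in every library. Cox6a1, the common form, was at 110 and 114 CPM against 65.9 to 130 CPM. Cox7a1, another muscle form, was at 1.82 and 3.14 CPM in the Elf5+ libraries and at 1.42, 1.01, 0.94 and 1.13 CPM in the Elf5- libraries, so that it lay above in Elf5+ cells without passing (log2 fold change 1.14, SE 0.45, adjusted p = 0.245). Among the Elf5- libraries Cox7a1 was highest in library 1, which also had the most skeletal muscle transcripts, but both Elf5+ libraries were higher still. Cox7a1 rested on 162 counts or fewer in every library, and the part of muscle cells in its level was not tested. The common counterpart Cox7a2 had a smaller difference (log2 fold change 0.49, SE 0.24, edgeR adjusted p = 0.368). Cox7a2l, a factor in the assembly of respiratory supercomplexes, made up 38.9% and 29.3% of its family per kilobase in Elf5+ cells and 37.7% to 45.0% in Elf5- cells.

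Cox6b2, a form known from testis, was at 4.57 and 0.52 CPM in the Elf5+ libraries and at 6.94, 6.65, 2.73 and 2.98 CPM in the Elf5- libraries. The higher Elf5+ value lies inside the range of the Elf5- values and the lower below it, and the log2 fold change of -0.93 (SE 0.84) did not pass (adjusted p = 0.673). The 3 libraries under the number of Elf5+ library 1 were all above the 3 under the other number. Cox6b1, the common form, was at 124 and 126 CPM against 71.7 to 105 CPM (log2 fold change 0.55, SE 0.22, adjusted p = 0.256). The 3 members that the filter removed were Cox7b2, with 1 count in all 6 libraries, Cox8b, with at most 8 counts in a library, and Cox8c, with 0 counts in every library. Of their common counterparts, Cox7b was at 0.16 (SE 0.30) and Cox8a at -0.11 (SE 0.35) by log2 fold change.

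Among the remaining nuclear members of complex IV, Cox6c, a small nuclear subunit, had a narrow spread in Elf5+ cells. Cox6c was at 175 and 175 CPM against 91.7, 108, 132 and 80.2 CPM, with no overlap (log2 fold change 0.76, SE 0.25, adjusted p = 0.147). Like Ndufa4, it passed in the T2 libraries with the title number as a block (0.92, adjusted p = 0.0365) and not with the block in all 6 libraries (0.77, adjusted p = 0.131). Cox7a1 and Cox6a2 were the highest and the lowest of the 15 complex IV members kept. The median of the 15 was 0.17, with 11 above 0, which is nearer to the median of all genes than that of complexes I and V. For 5 of the 15, both Elf5+ libraries lay above all 4 Elf5- libraries, against 10.9% of all genes.

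In nuclear complex I, 32 of 37 members had a log2 fold change above 0, with a median of 0.33. For 7 of the 37, both Elf5+ libraries lay above all 4 Elf5- libraries, against 10.9% of all genes. The highest was Ndufa4 and the lowest Ndufa4l2. Ndufb7, an accessory subunit on the intermembrane side, had the smallest p of the members that did not pass: it was at 88.7 and 83.6 CPM against 56.9, 59.6, 52.0 and 57.4 CPM (log2 fold change 0.61, SE 0.19, adjusted p = 0.129). Its replicates were close in both groups, and DESeq2 gave an adjusted p of 0.0421. Leaving aside the 2 genes at the ends, the complex I members ran from -0.13 (Ndufv3) to 0.61 (Ndufb7). Levels per kilobase ran from 4.27 CPM per kb for Ndufb4 to 233 CPM per kb for Ndufa4, with a median of 51.3 CPM per kb. Of the 31-base words of Ndufb4, 19.1% also occur in another gene, so its level is uncertain. The same limit holds for other members: 40 of the 97 share over 10% of their words, among them Atp5o (49.6%) and Uqcrb (34.8%), and 21 share none.

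Complex II had no called member. Sdha, the flavoprotein that oxidises succinate, was at 107 and 97.0 CPM against 132, 119, 122 and 87.0 CPM (log2 fold change -0.17, SE 0.24). Sdhb, the iron-sulfur subunit, was at 0.14 on the same scale (SE 0.26), and the membrane anchors Sdhc and Sdhd were at 0.36 (SE 0.23) and 0.16 (SE 0.21). The groups overlapped for all 4, whose adjusted p-values in the edgeR fit were 0.532 or more. Complex III was similar: 7 of its 8 nuclear members had a log2 fold change above 0, with a median of 0.29, from Uqcrfs1, the Rieske iron-sulfur protein (0.39, SE 0.21, adjusted p = 0.415), down to Uqcrq, a small subunit (-0.25, SE 0.29, adjusted p = 0.746). Uqcrfs1 and Uqcrb were the 2 of these whose groups did not overlap, both higher in Elf5+ cells, against 10.9% of all genes.

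Complex V had the most even direction: all 17 nuclear members had a log2 fold change above 0, with a median of 0.42, though none passed the test. For 8 of the 17, both Elf5+ libraries lay above all 4 Elf5- libraries, against 10.9% of all genes. Atp5b, the catalytic beta subunit, had the highest level per kilobase of the nuclear members, at 382 CPM per kb. Atp5b was at 825 and 989 CPM in the Elf5+ libraries and at 565, 749, 643 and 621 CPM in the Elf5- libraries (log2 fold change 0.49, SE 0.25, adjusted p = 0.388). Elf5- library 2 came nearest to the Elf5+ values. Atp5k, the e subunit that helps ATP synthase form dimers, was at 53.7 and 64.8 CPM against 24.8, 42.1, 46.7 and 36.5 CPM (log2 fold change 0.66, SE 0.28, adjusted p = 0.288). The lowest member was Atp5s, a coupling factor, at 0.12 (SE 0.42).

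The membrane ring of complex V is made of c subunits, which Atp5g1, Atp5g2 and Atp5g3 encode with the same mature peptide. Atp5g3 made up 88.2% to 92.0% of the family per kilobase in the 6 libraries. Atp5g2 was the highest of complex V by log2 fold change (1.12, SE 0.54, adjusted p = 0.359), but only through Elf5+ library 1: it was at 11.6 and 3.74 CPM in the Elf5+ libraries and at 3.91, 4.54, 3.72 and 1.85 CPM in the Elf5- libraries. Elf5+ library 2 lies among the Elf5- values, and 40.2% of the 31-base words of Atp5g2 also occur in other genes, mainly the pseudogene Gm10175. On the log2 scale, Atp5g1 was at 0.52 (SE 0.22) and Atp5g3 at 0.46 (SE 0.29).

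The 13 mitochondrially encoded members, per kilobase far more abundant than the nuclear ones (median 1152 against 73.3 CPM per kb), differ in how much sequence they share with other genes. For 7 of them (mt-Co1, mt-Co2, mt-Co3, mt-Atp6, mt-Nd3, mt-Nd4 and mt-Nd4l) 62.8% to 100% of the 31-base words also occur in another gene, and for the other 6 it is 0% (mt-Nd1) to 16.8% (mt-Nd5). Mouse chromosome 1 carries a nuclear copy of a stretch of mitochondrial DNA, and 7 of its annotated pseudogenes, between chr1:24611535 and chr1:24616197 on the minus strand, share at least 90% of their 31-base words with a mitochondrial gene. Pseudogenes on chromosome 2, below that share, also have words in common with these genes. Gm13340 holds 45.2% of the words of mt-Co1 and Gm13341 holds 47.1% of those of mt-Co2. Their counts were not added to the sums below. The sequences show how few bases tell a read from either place: the last 60 bases of mt-Atp6 (plus strand, chrM:8548-8607) above the end of its copy Gm10925 (minus strand, chr1:24613974-24614030), with capitals for the bases beyond the annotated end of the copy, and a stretch of mt-Co1 (plus strand, chrM:6390-6423) above its copy Gm29216 (minus strand, chr1:24616155-24616188), with capitals at A1066T, the only substitution in 483 aligned bases (mt-Co1 base first, counted from 1 at the first base of the gene).
mt-Atp6: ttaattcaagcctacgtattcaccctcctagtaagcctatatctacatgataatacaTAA
Gm10925: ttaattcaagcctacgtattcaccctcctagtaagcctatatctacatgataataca
mt-Co1: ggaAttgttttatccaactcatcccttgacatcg
Gm29216: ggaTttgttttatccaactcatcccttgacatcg
All 678 bases of Gm10925 match mt-Atp6, and all 681 bases of Gm28661 match mt-Co2.

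The deposited counts divided such reads differently in each library. For mt-Co2, a catalytic subunit of cytochrome c oxidase, 99.9% of the summed counts of gene and copy were given to the mitochondrial gene in Elf5+ library 1 and 33.9% in Elf5+ library 2, with 48.7% to 65.7% in the Elf5- libraries. For mt-Atp6, the proton channel subunit of ATP synthase, the shares were 99.8% and 29.0% in the Elf5+ libraries and 29.7% to 52.9% in the Elf5- libraries. For mt-Nd3, a complex I subunit, they were 66.5% and 27.9%, against 13.9% to 44.5%. For mt-Co2 and mt-Atp6 the 2 Elf5+ libraries thus lay at the opposite ends of the 6. The share for mt-Co1 ran from 52.0% to 78.2% over the 6 libraries, those for mt-Co3 and mt-Nd4 were at least 90.9% and 92.3%, and the copy of mt-Nd4l was at 0 counts in every library.

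**Figure D3:**
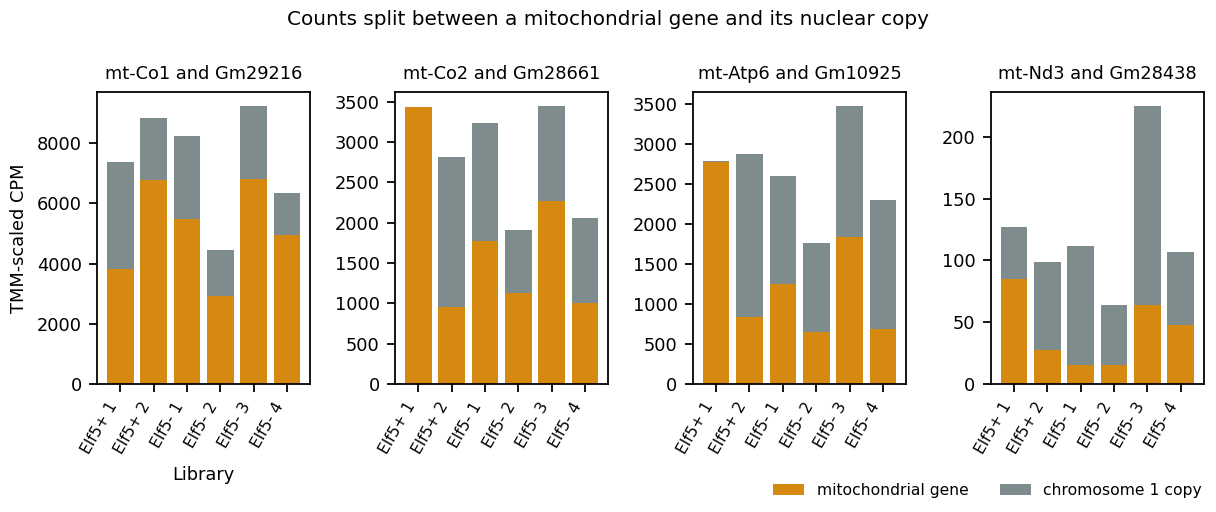
Level in CPM (y axis, separate scale for each gene) of 4 mitochondrial genes (orange) and of their chromosome 1 copies (grey, stacked) in the 6 libraries (x axis). In Elf5+ library 1 the copies of mt-Co2 and mt-Atp6 are at 3.69 and 6.39 CPM and in Elf5+ library 2 at 1860 and 2039 CPM, while gene and copy together are at 3432 and 2813 CPM for mt-Co2 and at 2784 and 2871 CPM for mt-Atp6.

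The values of the mitochondrial genes that stood out moved with this division. The gene mt-Atp6 was at 2778 and 832 CPM in the Elf5+ libraries and at 1255, 655, 1839 and 683 CPM in the Elf5- libraries, which is 0.70 as a log2 fold change (SE 0.58, adjusted p = 0.632). With Gm10925 added, mt-Atp6 was at 2784 and 2871 CPM in the Elf5+ libraries and at 1763 to 3475 CPM in the Elf5- libraries, and the log2 fold change was 0.16 (SE 0.34). The Elf5+ libraries then lay side by side, within the range of the Elf5- libraries. Adding the copies took the log2 fold change of mt-Co2 from 0.51 (SE 0.54) to 0.23 (SE 0.35) and that of mt-Nd3 from 0.65 (SE 0.67) to -0.17 (SE 0.45). Over the 13 genes, the median difference between the Elf5+ libraries went from 0.82 to 0.29 on the log2 scale; for the nuclear members it was 0.30.

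With the copies added, no mitochondrially encoded member passed the test (0.585% of all genes were then called higher and 3.82% lower), and the log2 fold changes ran from -0.17 to 0.23. In complex I these were mt-Nd1 (-0.17, SE 0.36), mt-Nd2 (-0.09, SE 0.34), mt-Nd3 (-0.17, SE 0.45), mt-Nd4 (-0.07, SE 0.37), mt-Nd4l (-0.13, SE 0.58), mt-Nd5 (-0.11, SE 0.51) and mt-Nd6 (-0.08, SE 0.45), all below 0. The cytochrome b gene mt-Cytb was at 0.02 (SE 0.34) in complex III. In complex IV mt-Co1 was at 0.20 (SE 0.38) and mt-Co3 at 0.03 (SE 0.42), and in complex V mt-Atp8 was at 0.03 (SE 0.49). These errors are wide: the median SE of the mitochondrial members before the copies were added was 0.45, against 0.26 for the nuclear members.

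The Elf5- libraries spread more widely for mitochondrial than for nuclear members. With the copies added, Elf5- library 3 had the highest level of the 6 libraries for 13 of 13 mitochondrial genes and Elf5- library 2 the lowest for 13 of 13. The median coefficient of variation among the 4 Elf5- libraries was 35.3%, against 20.9% for the nuclear members, and 44.7% before the copies were added. The mitochondrial median changed sign with the Elf5- libraries used. With the deposited counts of the 13 genes alone, it was 0.31 without Elf5- library 3, with 13 of 13 genes above 0, -0.21 without Elf5- library 2, with 3 of 13 above 0, and 0.39 in the T2 libraries alone, with 13 of 13 above 0. The nuclear median in those fits was 0.40, 0.33 and 0.34.

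**Figure D4:**
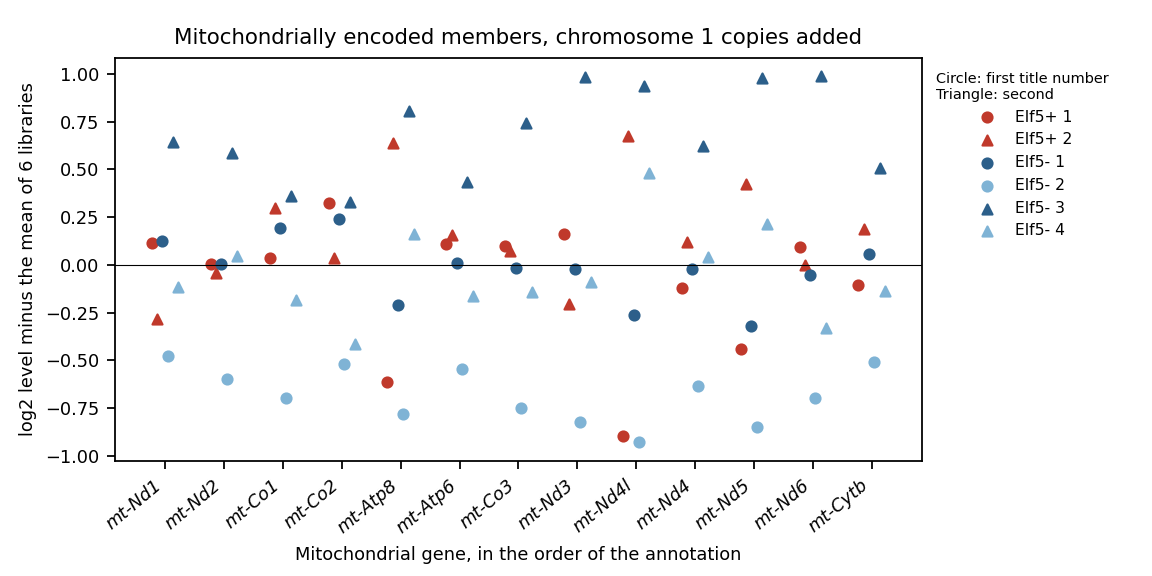
Level of each mitochondrially encoded gene with its chromosome 1 copy added (x axis, in the order of mitochondrial DNA), as log2 CPM minus the mean of the 6 libraries (y axis). Points are libraries (red Elf5+, dark blue T1 and light blue T2 Elf5- libraries; circles and triangles mark the 2 title numbers); Elf5- library 3 is highest and Elf5- library 2 lowest for all 13 genes.

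The title number separated some mitochondrial genes where Elf5 status did not. With the copies added, mt-Atp8, mt-Nd4l, mt-Nd4 and mt-Nd5 were higher in all 3 libraries under the number of Elf5+ library 2 than in all 3 under the other number, with ratios of the means of 2.11, 2.59, 1.44 and 2.14. For mt-Nd4l the values were 190.6 to 261.7 CPM under the number of Elf5+ library 2 and 71.8 to 114.1 CPM under the other. Among nuclear members 4 of 81 were separated in that direction and 3 in the other, and among all genes 8.10% and 8.83%. The number is not defined in the labels and is no comparison of the study, so no test is given.

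As a share of all counts, the mitochondrial members made up 1.83% and 1.84% in the Elf5+ libraries and 1.75%, 1.00%, 2.28% and 1.59% in the Elf5- libraries. The Elf5+ values sat inside the Elf5- range (1.84% ± 0.011, SD, n = 2, against 1.65% ± 0.53, SD, n = 4). With the chromosome 1 copies the shares were 2.18% and 2.50% against 1.34% to 2.77%, again overlapping. The ratio of mitochondrial to nuclear member counts was 2.43 and 2.28 in the Elf5+ libraries and ran from 1.59 to 3.61 in the Elf5- libraries. Nuclear and mitochondrial members thus differed in how the groups lay: apart for the nuclear sum, overlapping for the mitochondrial sum.

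Lists of genes that build and maintain the complexes, and of TCA cycle enzymes, also had small positive medians. None of their genes passed the test, against 0.585% of all genes called higher and 3.79% called lower. Over all genes the median log2 fold change was 0.05, with 53.3% above 0. Complex I assembly factors had a median log2 fold change of 0.19 (13 of 16 above 0), led by Acad9, an assembly factor related to acyl-CoA dehydrogenases (0.74, SE 0.26, adjusted p = 0.196). Assembly factors of complexes II to V had a median of 0.13 (20 of 34 above 0), led by Cox20, a chaperone of mt-Co2 (0.78, SE 0.29, adjusted p = 0.207). Factors of mitochondrial DNA transcription and replication had a median of 0.23 (11 of 13 above 0), with Twnk, the mitochondrial helicase, at 0.59 (SE 0.23, adjusted p = 0.247). Mitochondrial ribosomal proteins had a median of 0.25 (71 of 78 above 0), with Mrpl24 at 0.58 (SE 0.21, adjusted p = 0.196). Enzymes of the TCA cycle and pyruvate dehydrogenase had a median of 0.13 (12 of 17 above 0); the smallest p was that of Suclg2, a succinate-CoA ligase subunit, in the other direction (-0.70, SE 0.30, adjusted p = 0.297).

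Among 11 regulators of mitochondrial biogenesis the median was 0.21, with 9 above 0, against a median of 0.05 and 53.3% above 0 over all genes. Ppargc1a, the coactivator known for inducing respiratory genes, differed by library rather than by group: it was at 2.52 and 48.6 CPM in the Elf5+ libraries and at 2.36, 0.63, 5.68 and 28.4 CPM in the Elf5- libraries (log2 fold change 1.50, SE 1.38, adjusted p = 0.676). Its 3 highest values were in the 3 libraries under the number of Elf5+ library 2. Nrf1, a factor that binds promoters of respiratory genes, was at 58.5 and 50.7 CPM against 41.2 to 50.3 CPM (0.30, SE 0.20, adjusted p = 0.543), and Gabpb1, a subunit of the ETS factor GABP, was at 68.9 and 62.8 CPM against 43.3 to 53.3 CPM (0.40, SE 0.20, adjusted p = 0.383).

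Promoters of nuclear members were read from RefSeq (GRCm38.p6) as 250 bases before to 50 after the gene start, where 66 members had an entry by symbol. Ndufa4l2, Cox4i2 and Cox4i1 had no entry, so neither called member was searched. Short words known from promoters of respiratory genes were searched on both strands: GCGCATG, the core bound by Nrf1, and CCGGAAG, an ETS site of the kind bound by GABP and by Elf5's own family. A gene was counted if any of its promoters of this length matched. GCGCATG occurred for 13 of 66 member genes (19.7%) and for 4.40% of all 27025 genes with an entry. These genes were not matched to the members by gene type, expression or base composition, and the part of such differences in the shares was not tested. CCGGAAG occurred for 16 (24.2%) and for 9.90%. Both occurred in the same promoter for 6 (9.10%) and for 0.800% of all genes. The 6 were those of Atp5k, Uqcr11, Atp5l, Ndufb6, Cox6a1 and Sdhb, and none of these genes passed the test. Their log2 fold changes ran from 0.66 down to 0.14. All 6 were above 0, but so were 86.4% of the nuclear members kept, so the direction does not set them apart. A match of letters is a description, not a bound site. The 2 at the ends of that range are shown, with the matches on either strand in capitals, from Atp5k (minus strand, chr5:108434350-108434649), where matches to GCGCATG on the 2 strands overlap, and Sdhb (plus strand, chr4:140961021-140961320).
Atp5k: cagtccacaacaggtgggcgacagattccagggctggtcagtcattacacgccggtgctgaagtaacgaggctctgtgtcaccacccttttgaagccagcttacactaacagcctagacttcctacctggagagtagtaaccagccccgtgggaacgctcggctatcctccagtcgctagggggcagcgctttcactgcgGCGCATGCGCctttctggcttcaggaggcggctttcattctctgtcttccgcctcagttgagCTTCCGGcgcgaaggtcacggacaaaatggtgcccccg
Sdhb: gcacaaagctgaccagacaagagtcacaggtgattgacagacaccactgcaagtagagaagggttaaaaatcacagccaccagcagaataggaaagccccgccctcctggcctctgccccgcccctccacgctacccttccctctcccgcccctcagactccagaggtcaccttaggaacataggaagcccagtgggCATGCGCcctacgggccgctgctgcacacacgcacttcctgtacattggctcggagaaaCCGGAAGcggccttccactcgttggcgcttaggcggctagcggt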

How the data were processed

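Per the submitters' processing notes, the authors used Salmon and build GRCm38.p5 to make the deposited values, which are whole-number expected counts (estimated counts) per gene for 6 libraries. For the Salmon version, the annotation and the summing to genes, the sources used here give nothing. Salmon divides reads between similar transcripts by model, so genes with near-identical copies are uncertain. Symbols, coordinates, biotypes and transcript lengths came from GENCODE M21 (52220 of 52325 IDs matched, 97 of 97 members).

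All genes were fitted with edgeR 4.0.16 (R 4.3.3) on the counts, rounding changing none: filterByExpr by group, TMM factors, glmQLFit and glmQLFTest with no block, Elf5+ (n = 2) against Elf5- (n = 4). Calls have a Benjamini-Hochberg adjusted p below 0.05 over 20684 genes. The SE is the log2 fold change over the root of F. CPM are TMM-scaled; levels between genes are per kilobase of the principal transcript. Totals of 9106660 to 53694884 counts limit the precision of low genes. The common biological coefficient of variation was 0.446. The test was checked on 3 sets of simulated counts.

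Transcripts were compared by shared 31-base words, coding sequences aligned with Biopython 1.88, and figures drawn with matplotlib 3.10.9. Alternatives were other scalings and filters, DESeq2 1.42.0, limma-voom (limma 3.58.1), a block on the title number, T2 libraries alone and each library left out; after seeing the data, 2 more were tried: adding chromosome 1 copies to their mitochondrial genes, and leaving out Elf5- libraries 1 and 2. Members and lists were chosen with earlier results of these data known. Named genes are Elf5, the mitochondrial members, members past the threshold, the highest and lowest of each complex, the Sdh genes, the paralogue families, members filtered out, and up to 4 of smallest p per list; Ndufb7, Cox6c, Atp5b, Atp5k, Ndufv3, Ndufb4, Uqcrb and the genes named with their promoters were chosen after their values were seen. Of the marker lists not described, 0 adipocyte (5 kept), leukocyte (10) and erythroid (4) genes passed, and 3 of 10 endothelial genes (Eng, Kdr, Tek) were lower.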

Additional observations from a re-analysis of the deposited data

Results flagged for a closer look

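Of the 97 values checked in the 4 Elf5- libraries, which are the 94 members kept and 3 shares of counts, 1 stood apart from the rest of its group. Cox5a, a subunit of cytochrome c oxidase, was at 93.96 CPM in Elf5- library 2 and at 59.8 to 65.61 CPM in the other Elf5- libraries, so that the gap to the nearest library was 0.83 of the range of the group. The Elf5+ libraries were at 83.1 and 93.6 CPM, and the log2 fold change of 0.32 (SE 0.25) did not pass edgeR's quasi-likelihood test (adjusted p = 0.606). Chance alone puts about 1 in 20 such groups apart.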

How the results depend on the processing

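Ndufa4l2 kept its call when each library was left out (log2 fold change -4.23 to -3.93, adjusted p from 0.0118 to 0.0448) and lost it in the T2 libraries alone (-3.78, adjusted p = 0.101) and without Elf5- libraries 1 and 2 (-3.92, 0.0621). Cox4i2 lost its call in every leave-one-out fit (-2.60 to -2.24) and at those same settings (-2.30, 0.226, and -2.75, 0.152); the cause was not tested. Depth limits low genes most in the smallest library, Elf5- library 4. Leaving out each library gave 0 members higher and 1 lower, and 25 to 133 genes higher and 197 to 811 lower among all genes, against 121 and 783. Elf5 lost its call without Elf5+ library 2 or Elf5- library 1 or 3 (2.58, 2.96 and 2.94) and in the same 2 settings as Ndufa4l2 (2.78 and 2.67). All-gene counts were 273 higher and 1331 lower with no filter, 436 and 1763 with DESeq2 (1 member higher, Ndufb7), and 0 and 75 without Elf5- libraries 1 and 2 (0 members; 539 and 1657 genes at an unadjusted p under 0.05). In the T2 libraries alone edgeR called 0 and 0 genes and 0 members (469 and 1463 genes at an unadjusted p under 0.05; the cause was not tested).

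What the title numbers stand for is not given, so the main fit did not pair the samples by them. Each Elf5+ library does share its number and T2 code with an Elf5- library. The deviations of these T2 pairs correlated at 0.584 and 0.666, and at 0.302 and 0.6 over the members. No value is given for libraries that do not share a number, so these correlations do not decide whether the samples are paired. If the numbers mark a true pairing, the main fit ignores it. With the number as a replicate block, 252 genes were higher and 1011 lower, and 0 and 2 members; in the T2 libraries with the replicate block, 549 and 1368 genes, with 2 members higher (Ndufa4, Cox6c) and the same 2 lower, and 34 and 3 members at an unadjusted p under 0.05.

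Of 1686 values of members under alternatives, 1647 kept direction or crossed 0 by less than 1 SE (69 of them), 26 changed sign by more, none of them called, 10 lost a call (Ndufa4l2 and Cox4i2, above) and 3 gained one (Ndufa4, Cox6c and Ndufb7, above). In the T2 libraries, without and with the replicate block, these were mt-Nd1 (0.22 and 0.22), mt-Nd4 (0.31 and 0.33), mt-Nd6 (0.56 and 0.57) and mt-Co3 (0.49 and 0.52), and with the replicate block there also mt-Nd2 (0.26). With the copies added, mt-Nd3 was at -0.17. Over the leave-one-out fits the ranges were -0.38 to 1.24 for mt-Nd3, -1.12 to 0.45 for mt-Nd4l, -0.28 to 0.38 for mt-Nd6, -0.40 to 0.42 for mt-Co1, -0.69 to 1.15 for mt-Co2, -0.41 to 1.32 for mt-Atp6, -0.73 to 0.53 for mt-Atp8, -0.29 to 0.41 for Ndufa8, -0.36 to 0.33 for Ndufb2, -0.16 to 0.49 for Ndufb6, -0.26 to 0.62 for Ndufs3, -0.22 to 0.94 for Ndufs5, -0.20 to 0.41 for Sdhb, -0.30 to 0.44 for Cox7a2l, -0.20 to 0.62 for Atp5a1 and -0.39 to 0.49 for Atp5s. The median over nuclear members stayed between 0.24 and 0.40 in all fits run, and that over mitochondrial members ran from -0.34 to 0.39. The difference in mitochondrial share of counts (Elf5+ minus Elf5-), 0.182 percentage points, ran from -0.036 without Elf5- library 2 to 0.390 without Elf5- library 3.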
